A study of Homo sapiens with 6 samples.

Results

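The OSBP-related proteins (ORPs) are the lipid-transfer family to which OSBPL3 belongs, and the 10 paralogues of OSBPL3 described here are OSBP, OSBPL1A, OSBPL2, OSBPL5, OSBPL6, OSBPL7, OSBPL8, OSBPL9, OSBPL10 and OSBPL11. They were taken by gene symbol from a count table of 20729 genes, and all 10 were present and passed the filter on low counts. RNA-seq libraries came from cells labelled SW620, an established human colorectal cancer line, 3 after a control siRNA (siNC) and 3 after an siRNA against OSBPL3 (siOSBPL3). No other treatment is named in the labels, and siRNA sequence, dose and time are not given in the sources used here. No label states that replicates were separate cultures, and p-values therefore reflect the spread of these libraries alone, possibly a technical one. Total counts ran from 30040020 to 39701340 per library.

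ORPs share a lipid-binding domain that holds a sterol or phosphatidylserine and, in exchange, the phosphoinositide PI4P. Most also carry a pleckstrin homology domain that docks on phosphoinositides of a target membrane and an FFAT motif that binds VAP proteins on the endoplasmic reticulum. The family therefore works at contact sites, where PI4P made on the Golgi or plasma membrane is carried back to the endoplasmic reticulum and hydrolysed there by the phosphatase SAC1 (SACM1L), which drives lipid transport the other way.

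Reads can be assigned to one paralogue only where the genes differ in sequence, so a conserved stretch of the family is shown for 6 genes. It is the 24-base coding sequence of the signature motif of the lipid-binding domain, found in every ORP gene of the GENCODE 29 transcripts (GRCh38), once in each coding sequence used. Capitals mark the bases that differ from OSBPL3, and each line reads 5′ to 3′ on the coding strand.
OSBPL3: gaacaggtcagccaccatccgcct
OSBPL6: gaacaggtTagccaTcatccAccC
OSBP: gaacaggtGagTcaTcatccCcct
OSBPL5: gaGcaggtGTCccaccaCccgccC
OSBPL8: gaacaggtGTCccaTcatccAccA
OSBPL10: gaGcaAgtGTCccaTcaCccAccC
The OSBPL10 stretch lies within exon 8 of the transcript used (chr3:31683746-31683769, minus strand). The OSBPL3 stretch is split by an intron between exon 16 and the next exon (chr7:24820221-24830773, minus strand, intron included). Even in this stretch the paralogues differed from OSBPL3 at 4 bases (OSBP, OSBPL1A, OSBPL2 and OSBPL6) to 9 bases (OSBPL10). Over whole transcripts, no 50-base run of the longest transcript of any ORP gene was found in a transcript of another ORP gene, on either strand. Runs shared with genes outside the family made up at most 2.87% of a longest transcript (OSBPL1A).

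OSBPL3 itself was lower in every siOSBPL3 library. It stood at 179, 174 and 175 CPM (counts per 1000000 counts, TMM-scaled) in siNC replicates 1 to 3 and at 40.2, 12.2 and 15.1 CPM in siOSBPL3. The groups did not overlap, and siOSBPL3 replicate 1 held the most transcript of its group (log2 fold change -2.97 ± 0.48 SE, adjusted p = 0.0016, edgeR quasi-likelihood test with Benjamini-Hochberg adjustment over 15506 genes). With siOSBPL3 replicate 1 left out it was -3.68, and with the correction for GC content and transcript length described below -2.30.

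The 2 groups differed in much more than OSBPL3, which sets the background for its relatives. Of all genes tested 80.2% passed an adjusted p of 0.05, and the 3 siOSBPL3 libraries differed more from each other (chi-square over degrees of freedom, 19.5 to 52.1) than the siNC libraries did (2.98 to 3.59). Within siOSBPL3, replicate 1 departed most, at 44.6 from replicate 2 and 52.1 from replicate 3, beside 19.5 between replicates 2 and 3. Pearson correlations of log2 CPM over genes lay between 0.984 and 0.992 for libraries of the same group and between 0.745 and 0.751 for libraries of different groups. The identity of the cells in each group was not tested, and a difference between the cells used and an effect of the siRNA cannot be told apart. All fold changes given here are therefore differences between these libraries. The 12 colorectal epithelial markers summed to 7102 to 7180 CPM in siNC and 4885 to 6015 CPM in siOSBPL3. Keratin genes KRT8 and KRT18 and the epithelial gene EPCAM were abundant in both groups, whereas the intestinal marker genes KRT20, CDX1, CEACAM5 and GPA33 were under 1 CPM in every library. CDX2, an intestinal transcription factor gene, stood at 1.15 CPM in siNC and 63.5 CPM in siOSBPL3, and VIL1, a brush border gene, at 482 and 62.6 CPM. Summed leukocyte markers (6 of 10 in the table) ran from 3.07 to 3.38 CPM in siNC and from 3.55 to 4.87 CPM in siOSBPL3, with PTPRC at most 0.25 CPM. Within that sum CD14 went from 0.28 CPM in siNC to 3.06 CPM in siOSBPL3 (means of 3 libraries) and LYZ from 1.93 to 0.18 CPM. Endothelial markers (3 of 5 in the table) ran from 1.39 to 2.37 CPM in siNC and from 0.22 to 0.80 CPM in siOSBPL3. Summed fibroblast markers (7 of 9 in the table) ran from 69.99 to 74.4 CPM in siNC and from 3.46 to 5.98 CPM in siOSBPL3, of which LUM made up 57.4 to 62.5 CPM in siNC and had 0 counts in siOSBPL3, while COL3A1 had 0 counts in siNC and 1 count in siOSBPL3. In such bulk libraries fewer cells of a kind and less RNA per cell cannot be told apart. The part of these differences in the results on the ORP genes was not tested.

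Among the paralogues 1 was higher in siOSBPL3, 6 were lower and 3 did not pass the test. OSBPL5 was the gene that rose, and OSBP, OSBPL2, OSBPL6, OSBPL8, OSBPL9 and OSBPL10 fell. When transcript GC content and length were corrected for, as described below, the split was 3 higher and 4 lower. The 7 called of 10 are close to the 80.2% called over all genes, so being called does not set the family apart. Over all genes 40.4% were called higher and 39.8% lower, beside 1 and 6 of the 10 paralogues. The median log2 fold change was -0.53 over the paralogues (-0.11 with the correction) and -0.00089 over all genes tested, and the median absolute change was 0.57 and 1.00. The same 7 genes were those without overlap between groups, beside 83% of all genes, and 4 of them (OSBPL5, OSBPL6, OSBPL8 and OSBP) changed at least 2-fold, beside 48.9% of all genes.

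**Figure D1:**
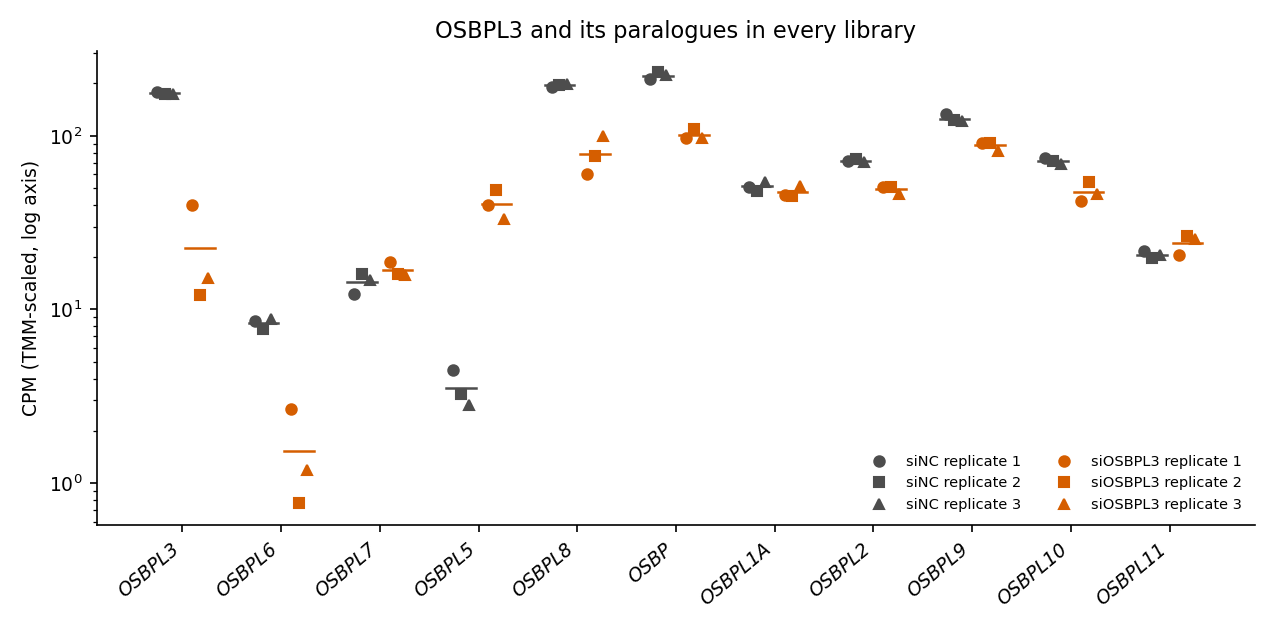
TMM-scaled CPM (log axis) of OSBPL3 and its 10 paralogues in each of the 6 libraries; symbols mark replicates, grey is siNC, orange is siOSBPL3 and short lines are group means. OSBPL5 is the only paralogue whose siOSBPL3 libraries all lie above its siNC libraries, while OSBPL1A, OSBPL7 and OSBPL11 overlap between groups.

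OSBPL6 and OSBPL7 encode the paralogues grouped with OSBPL3 in the same subfamily. OSBPL6 (chr2:178194481-178402891), known for its expression in brain and muscle, was already scarce in siNC, at 8.59, 7.74 and 8.77 CPM, and stood at 2.66, 0.77 and 1.19 CPM in siOSBPL3. The siOSBPL3 values rest on 96, 28 and 47 counts. All 3 siOSBPL3 libraries were below every siNC library, and replicate 1 was the highest of them, as it was for OSBPL3 and for OSBPL7. The log2 fold change was -2.45 ± 0.35 SE (adjusted p = 3.6e-05, edgeR), -3.08 without siOSBPL3 replicate 1 and -1.39 with the correction for GC content and length. OSBPL7 stood at 12.3, 15.97 and 14.8 CPM in siNC and at 18.9, 16.02 and 15.7 CPM in siOSBPL3. These values overlap between the groups, and the gene was not called (log2 fold change 0.23, 95% interval -0.059 to 0.52, adjusted p = 0.13, edgeR). With the correction it was called lower (-0.41, 95% interval -0.68 to -0.13, adjusted p = 0.011, edgeR).

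OSBPL5 and OSBPL8 form a subfamily of proteins anchored in the endoplasmic reticulum by a tail segment, which carry phosphatidylserine to the plasma membrane in exchange for PI4P. Without a correction for GC content and length their transcripts moved in opposite directions. OSBPL5 (chr11:3087116-3166739) stood at 4.51, 3.28 and 2.83 CPM in siNC and at 39.98, 48.7 and 33.4 CPM in siOSBPL3. Every siOSBPL3 library was above every siNC library, and the gene rose 11.4-fold (log2 fold change 3.52 ± 0.19 SE, adjusted p = 5.5e-09, edgeR). With the correction for GC content and length the rise was 5.97-fold (2.58 on the log2 scale). A log2 fold change as high as that of OSBPL5 or higher was found in 936 of the 15506 genes tested. OSBPL8 (chr12:76351797-76559809) stood at 191, 196 and 199 CPM in siNC and at 60.1, 77.0 and 99.8 CPM in siOSBPL3. The groups did not overlap, but the siOSBPL3 libraries spread widely, with replicate 1 lowest and replicate 3 highest, unlike OSBPL3. OSBPL8 fell by 1.30 ± 0.15 (SE) on the log2 scale (adjusted p = 4.3e-06, edgeR), a call lost with that correction (-0.23, adjusted p = 0.11, edgeR).

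OSBP, the founding member, exchanges cholesterol for PI4P between the endoplasmic reticulum and the Golgi. Its transcript (chr11:59574398-59616144) stood at 212, 232 and 223 CPM in siNC and at 96.8, 109.7 and 97.3 CPM in siOSBPL3. The siOSBPL3 libraries lay close together, at 43.6% to 49.4% of the siNC mean, a narrower band than those of OSBPL3 (6.93% to 22.8%). OSBP fell by 1.13 ± 0.09 (SE) on the log2 scale (adjusted p = 1.3e-07, edgeR). Its closest relative OSBP2, which is not among the 10, stood at 5.48, 5.96 and 6.64 CPM in siNC and at 12.3, 14.7 and 10.2 CPM in siOSBPL3 (log2 fold change 1.04 ± 0.17 SE). The longest OSBP2 transcript has 58.8% GC, and a fold change with the correction for GC content and length is not given for this gene.

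OSBPL1A and OSBPL2 make up another subfamily. The long product of OSBPL1A binds RAB7 on late endosomes and senses cholesterol there, and ORP2, from OSBPL2, is a short protein without a pleckstrin homology domain that moves cholesterol to the plasma membrane. OSBPL1A stood at 50.8, 48.3 and 54.4 CPM in siNC and at 45.9, 44.9 and 51.3 CPM in siOSBPL3. The groups overlapped and the gene was not called (log2 fold change -0.11, 95% interval -0.31 to 0.084, adjusted p = 0.27, edgeR), but with the correction it was called higher (0.31). OSBPL2 stood at 71.8, 73.9 and 70.2 CPM in siNC and at 50.8, 50.9 and 46.4 CPM in siOSBPL3. It varied little within either group and fell by 0.54 ± 0.08 (SE) on the log2 scale (adjusted p = 4.6e-05, edgeR).

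OSBPL9, OSBPL10 and OSBPL11 encode proteins that act at contacts of the endoplasmic reticulum with the Golgi and endosomes, where ORP10 and ORP11 pair with ORP9. OSBPL9 stood at 133, 123 and 121 CPM in siNC and at 91.3, 91.4 and 81.9 CPM in siOSBPL3, with no overlap. OSBPL10 stood at 74.2, 71.6 and 69.2 CPM in siNC and at 42.0, 53.9 and 46.0 CPM in siOSBPL3, also apart. Both genes fell modestly, OSBPL9 by 0.51 ± 0.08 (SE, adjusted p = 0.00011, edgeR) and OSBPL10 by 0.60 ± 0.10 (SE, adjusted p = 0.00012, edgeR) on the log2 scale. Both calls ended with the correction for GC content and length, at 0.01 (adjusted p = 0.92, edgeR) and 0.03 (adjusted p = 0.77, edgeR). OSBPL11 stood at 21.6, 19.9 and 20.6 CPM in siNC and at 20.5, 26.6 and 25.4 CPM in siOSBPL3. Of the siOSBPL3 libraries replicate 1 lay within the siNC range and the others above it, and the gene was not called (log2 fold change 0.22, 95% interval -0.036 to 0.48, adjusted p = 0.10, edgeR). OSBPL11 was called higher without that library (0.33, adjusted p = 0.0048, edgeR) and when scaled by library totals (0.26, adjusted p = 0.048, edgeR). Its adjusted p lay between 3.3e-05 and 0.27 across the alternatives. Protein-coding genes on the opposite strand overlap OSBPL9 (NRDC, by 9237 bases of the gene spans) and OSBPL10 (ZNF860, by 9858 bases). The strand setting of the counting is not given, so shared reads cannot be told apart. These neighbours went from 15594 to 11354 counts (NRDC) and from 1323 to 676 counts (ZNF860) over the 3 libraries of a group. Unlike CPM, these sums are not scaled for depth. Library totals were larger in siOSBPL3 (34569895 to 39701340) than in siNC (30040020 to 33667128).

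**Figure D2:**
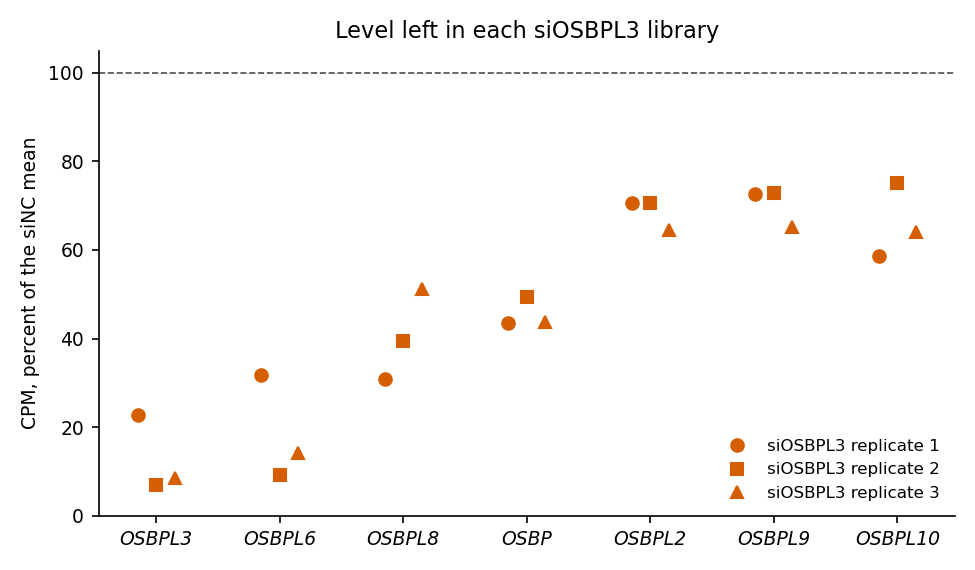
CPM in each siOSBPL3 library as a percent of the siNC mean (dashed line at 100) for OSBPL3 and the 6 paralogues that fell; symbols mark replicates. Replicate 1 is the highest of its group for OSBPL3 (22.8%) and OSBPL6 (31.8%) and the lowest for OSBPL8 (30.8%) and OSBPL10 (58.6%). It is also narrowly the lowest for OSBP (43.6%, beside 43.8% in replicate 3).

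The base composition and length of the transcripts went with the fold changes. Across the 10 paralogues, log2 fold change had a Spearman correlation of 0.612 with the GC content of the longest transcript and of -0.927 with its length, as a description of genes measured in the same 6 libraries. Across the 14440 tested genes with a GENCODE transcript, the values were 0.372 and -0.204. OSBPL5 had the highest GC content of the 10 (63.6%) and the shortest transcript (3889 bases), OSBPL8 the lowest GC content (35.5%) and OSBPL6 the longest transcript (10513 bases). These features therefore run along the order of the fold changes in this family.

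With a smooth correction of each library for both features, 7 of the 10 paralogues were still called, beside 77.7% of all corrected genes, but they were not the same 7. OSBPL5 remained higher (2.58 ± 0.17 SE, adjusted p = 2.5e-07, edgeR), and OSBP (-1.06 ± 0.07 SE, adjusted p = 3.1e-07, edgeR), OSBPL2 (-0.60 ± 0.07 SE, adjusted p = 1.1e-05, edgeR) and OSBPL6 (-1.39 ± 0.36 SE, adjusted p = 0.0046, edgeR) remained lower. OSBP and OSBPL2, with GC contents near the median of all genes (49%), moved by less than 0.1. The calls of OSBPL8, OSBPL9 and OSBPL10 were lost. OSBPL1A (0.31, adjusted p = 0.0043, edgeR) and OSBPL11 (0.77, adjusted p = 8e-05, edgeR) were then called higher and OSBPL7 lower. Across all alternatives the adjusted p lay between 1e-21 and 0.11 for OSBPL8, 6.1e-08 and 0.95 for OSBPL9, 1.2e-07 and 0.81 for OSBPL10, 0.0043 and 0.57 for OSBPL1A, and 0.011 and 0.44 for OSBPL7. The split of the paralogues became 3 higher and 4 lower, beside 39.2% higher and 38.5% lower of all corrected genes, and their median log2 fold change became -0.11.

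**Figure D3:**
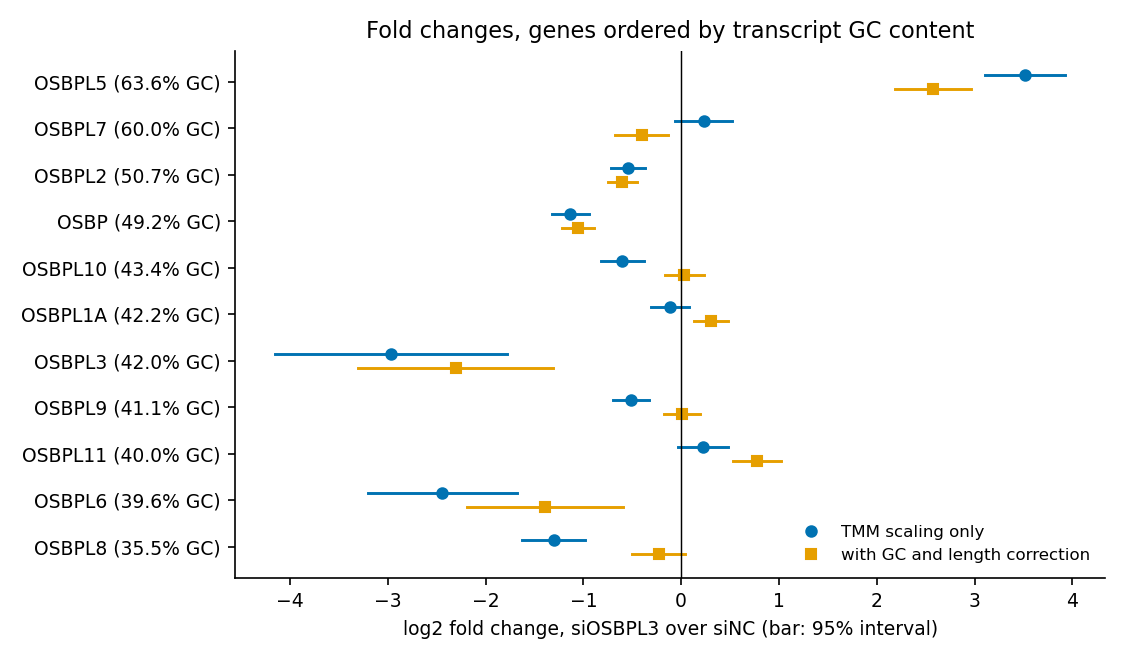
Log2 fold change of siOSBPL3 over siNC with its 95% interval for OSBPL3 and the 10 paralogues, ordered by GC content of the longest transcript; blue circles are TMM scaling alone and orange squares add the correction for GC content and length. OSBPL5, OSBP, OSBPL2, OSBPL6 and OSBPL3 stay on one side of 0 with both, while OSBPL9 and OSBPL10 move to 0.01 and 0.03.

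To compare the genes with each other, counts were divided by the length of the longest transcript and scaled to a total of 1000000 per library (TPM). In siNC the order of these levels was OSBP at 128 ± 6.65 TPM (SD, n = 3), OSBPL9 at 81.1 ± 3.46, OSBPL8 at 78.7 ± 2.26, OSBPL3 at 75.97 ± 0.64, OSBPL2 at 45.0 ± 1.18, OSBPL1A at 35.6 ± 2.21, OSBPL10 at 27.1 ± 0.77, OSBPL11 at 14.4 ± 0.51 and OSBPL7 at 9.33 ± 1.26. OSBP2 (4.06 ± 0.42), OSBPL5 (2.65 ± 0.63) and OSBPL6 (2.32 ± 0.15) came last. Libraries of OSBPL9 and OSBPL8, of OSBPL8 and OSBPL3, and of OSBPL5 and OSBPL6 overlapped, so those neighbours are not separated beyond their spread. OSBPL3 thus ranked 4 in siNC by the longest transcript, at 15.1% of the summed TPM of these genes. With the median transcript length it ranked 6, at 6.74%.

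In siOSBPL3 libraries OSBP (51.9 ± 4.09 TPM, SD, n = 3) and OSBPL9 (50.9 ± 4.07) overlapped at the top. OSBPL1A (29.4 ± 1.60), OSBPL8 (28.3 ± 6.60), OSBPL2 (27.6 ± 1.93) and OSBPL5 (27.3 ± 5.48) followed with overlapping libraries. OSBPL10 (15.96 ± 2.05) and OSBPL11 (15.01 ± 1.89) came next, then OSBPL7 (9.79 ± 1.16), OSBPL3 (8.73 ± 6.10), OSBP2 (7.47 ± 1.43) and OSBPL6 (0.38 ± 0.25). Within the OSBPL5 and OSBPL8 pair, OSBPL5 made up 4.22%, 3.03% and 2.58% of the pair's TPM in siNC and 55.3%, 54.1% and 38.3% in siOSBPL3. With median transcript length these shares averaged 1.51% and 30.9%. With the fold changes corrected for GC content and length, the OSBPL5 share of the pair in CPM per kilobase went from 3.27% to 19.1%. Both of these alternatives were chosen after seeing the data.

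In TPM the rise of OSBPL5 was smaller than the summed fall of the others. The 10 paralogues summed to 418, 428 and 425 TPM in siNC and to 250, 271 and 248 TPM in siOSBPL3. The siOSBPL3 mean was 60.5% of the siNC mean, and the groups did not overlap (exact permutation test over libraries, two-sided p = 0.1, the smallest that 3 against 3 allows). The OSBPL3 share of the family total, OSBP2 included, lay between 14.8% and 15.4% in siNC and stood at 5.76%, 1.66% and 2.196% in siOSBPL3 (exact permutation test, two-sided p = 0.1). The size of the summed fall depends on the scale: it was to 67.8% of siNC in TMM-scaled CPM per kilobase and to 84.9% with the fold changes corrected for GC content and length. In that corrected sum (145 to 123 CPM per kilobase) OSBP went from 43.7 to 21.0. OSBPL2, OSBPL6, OSBPL7 and OSBPL8 were also lower, at 38.1% to 85.4% of siNC. OSBPL1A, OSBPL5, OSBPL9, OSBPL10 and OSBPL11 stood at 101% to 597%. The order of genes depends on the length chosen, and with the median transcript length OSBPL8, not OSBP, was first in both groups and the OSBPL3 share went from 6.74% to 1.504%.

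**Figure D4:**
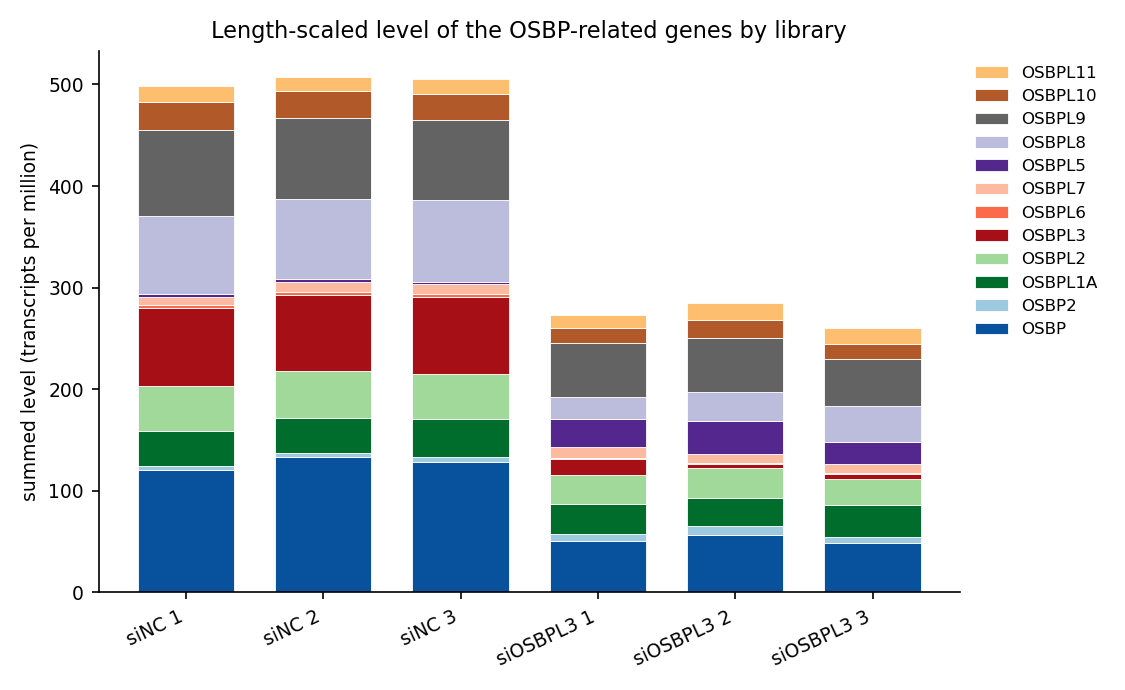
Length-scaled level (TPM, longest transcript) of the 10 paralogues, OSBPL3 and OSBP2, stacked for each of the 6 libraries. The stacks reach 498 to 508 TPM in siNC and 260 to 285 TPM in siOSBPL3, where OSBPL5 is a visible part of the total and OSBPL3 a thin one.

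Genes that work with ORPs were followed in 5 lists with 28 members, all of them tested. Of these, 15 rose, 6 fell and 7 were not called, beside 40.4% higher and 39.8% lower over all genes. With the correction for GC content and length 16 were higher and 9 lower, beside 39.2% higher and 38.5% lower of all corrected genes. These shares over all genes also belong beside the counts of each list below. Among the 5 genes for endoplasmic reticulum proteins of the VAP and MOSPD families, the receptors of FFAT motifs, 1 rose and 2 fell, and with the correction 2 were higher and 3 lower. VAPA, the main anchor of ORPs, rose by 0.37 on the log2 scale (145 to 186 CPM; 1.33 with the correction), and MOSPD2 (-1.93; -1.13 with the correction) and MOSPD1 (-1.10; -0.56) fell. MOSPD3 was not called (0.24, adjusted p = 0.079, edgeR), but was lower with the correction (-0.96, adjusted p = 1e-05, edgeR). VAPB was not called at 82.7 and 84.6 CPM (0.03, adjusted p = 0.78, edgeR), and with the correction it was higher (0.61, adjusted p = 0.00018, edgeR).

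Of 11 genes for enzymes that make or remove PI4P and their scaffolds, 6 rose, 2 fell and 3 did not pass (median log2 fold change 0.47). The shares over all genes were 40.4% higher and 39.8% lower. With the correction 7 were higher and 3 lower, beside 39.2% and 38.5% of all corrected genes. The kinase genes PI4KB (0.75; 0.36 with the correction), PI4K2A (0.50; 0.20) and PI4K2B (0.58; 1.11) rose. SACM1L, which encodes the PI4P phosphatase on the endoplasmic reticulum, was not called at 48.3 ± 3.32 and 51.6 ± 3.49 CPM (SD, n = 3 each, log2 fold change 0.09, adjusted p = 0.35, edgeR), and with the correction it was higher (0.57, adjusted p = 6.9e-05, edgeR). The plasma membrane kinase PI4KA works in a complex with TTC7 and hyccin proteins, whose genes moved apart. TTC7B (1.77; 2.41 with the correction) and TTC7A (1.12; 0.59) rose, and the hyccin genes FAM126A (-5.62; -4.34) and FAM126B (-1.93; -0.74) fell, FAM126A from 11.1 ± 1.24 CPM (SD, n = 3) in siNC to 0.14, 0.25 and 0.28 CPM in siOSBPL3. PI4KA itself was not called (-0.12, adjusted p = 0.42, edgeR), but was lower with the correction (-0.30, adjusted p = 0.026, edgeR).

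All 3 genes of the kinases that turn PI4P into the next phosphoinositide of the plasma membrane rose, beside 40.4% called higher over all genes. PIP5K1C rose by 1.79 (0.98 with the correction) and PIP5K1A by 0.19 (adjusted p = 0.043, edgeR), and PIP5K1B had 3 counts over the siNC libraries and 1090 over the siOSBPL3 libraries. Of 3 phosphatidylserine and phosphatidylethanolamine synthesis genes, PISD (1.89; 1.28 with the correction) and PTDSS2 (0.49) rose, the latter no longer called with the correction (-0.12, adjusted p = 0.29, edgeR). PTDSS1 was not called (0.07), but was higher with the correction (0.24, adjusted p = 0.039, edgeR). Of 6 genes for partners of ORPs or for other lipid-transfer proteins on the Golgi, 3 rose, 2 fell and 1 did not pass, and with the correction 2 were higher and 3 lower. ARF1 lost its call (0.47; -0.15 with the correction, adjusted p = 0.20, edgeR), and RAB7A was then called lower (-0.29, adjusted p = 0.019, edgeR). RRAS, the small GTPase bound by the OSBPL3 protein, rose by 2.40 (1.17 with the correction), and CERT1, a ceramide carrier that depends on PI4P on the Golgi, fell by 1.14 (-0.32 with the correction). PHLDB2 went from 9 counts over the siNC libraries to 1462 over the siOSBPL3 libraries.

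The genes most like the paralogues with the largest rise and fall were sought by Euclidean distance of centred log2 CPM over the 6 libraries. The search covered genes whose mean reached 5 CPM, which for OSBPL5 were 11205 others. OSBPL6 itself did not reach that mean. The closest genes to OSBPL5 were PALM3 (distance 0.252), TSPAN17 (0.442) and KIF7 (0.474). For OSBPL6 they were KLHL24 (0.468), CCNG2 (0.484) and HDAC9 (0.522).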

How the data were processed

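The deposited values are whole-number counts by gene symbol for 6 libraries, left unnormalized by the authors. HISAT2 2.2.1, HTSeq 0.13.5 and GRCh38 are named in the submitters' processing notes; annotation and strand setting are not given in the sources used here. Groups came from sample titles and columns were matched by library name. No replicate pair agreed within sampling noise, so all 6 libraries were counted.

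Counts were tested across the whole table with edgeR 4.0.16 in R 4.3.3 (filterByExpr with a minimum count of 10 and a total of 15, TMM, robust quasi-likelihood fit on group, two-sided, Benjamini-Hochberg adjustment over 15506 genes, threshold 0.05). CPM use TMM-scaled library sizes. Log2 fold changes are siOSBPL3 over siNC. TPM were computed from counts and the longest GENCODE 29 transcript, over the 17478 genes with one. The correction for GC content and length fitted smooth terms to each library's log2 CPM deviations (mgcv 1.9.3) and entered as offsets. Alternatives used DESeq2 1.42.0, limma 3.58.1 (voom), other scalings and filters, a replicate block, and each library left out. On 3 simulated sets with 200 changed genes each (15409 to 15422 genes tested), the test recovered 60% of genes changed 1.5-fold and 96% changed 8-fold, with 6.9% of calls false. These simulations changed far fewer genes than differ in the data.

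The paralogues and gene lists were chosen with earlier results of these data known. Text names all 10 paralogues, OSBPL3, and, as a rule, up to 3 genes per list with the smallest adjusted p. It also names the 3 genes closest in pattern to the paralogue with the largest rise and fall. PI4KB, PI4K2A, PI4K2B, PI4KA, SACM1L, VAPB, TTC7A and OSBP2, cell type markers, and genes overlapping OSBPL9 and OSBPL10 are named for their role, after their values were seen. MOSPD3, ARF1 and RAB7A, whose calls changed with the correction, are also named outside the rule, after their values were seen.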

Additional observations from a re-analysis of the deposited data

How the results depend on the processing

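The count of 7 paralogues called was between 6 and 8 under all alternatives (6 with a mean of at least 5 CPM, which leaves out OSBPL6), and OSBPL5, OSBP and OSBPL2, as well as OSBPL6 where it was tested, kept direction and call in each. DESeq2, voom, RLE factors, no filter, a threshold of 0.01 and the replicate block (7 called) changed no call of a paralogue. Same-numbered libraries did not deviate together (Pearson -0.00609, -0.00875 and -0.00433 across genes), and no library correlated best with its own number. Correlations between libraries of different groups all lay between -0.023 and 0.0287. As the deviations are from means of only 3 libraries, these values cannot show whether same-numbered libraries were prepared as pairs. The block moved the calls over all genes from 12437 to 12277. With the correction for GC content and length, and with the same correction plus the replicate block, signs turned for OSBPL1A (0.3054 and 0.3059), OSBPL7 (-0.4054 and -0.4028), OSBPL9 (0.01004 and 0.007004) and OSBPL10 (0.03067 and 0.02539); the correction's own construction, which removes the trends with GC content and length, moves these values. OSBPL8 was not called with the correction alone (adjusted p = 0.11, edgeR) and was called with the block added (0.039). The change in OSBPL3 share was -11.88 percentage points, -5.232 with the median transcript length and from -13.15 to -11.1 with a library left out. The summed level of the paralogues was 60.54% of siNC, 67.81% in TMM-scaled CPM per kilobase and 84.94% with the correction, both chosen after seeing the data. Intervals on fold changes and the low counts of OSBPL6 (28 to 96 in siOSBPL3) limit what depth can resolve.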
